A study of Mus musculus with 18 samples.

Results

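The 8 genes described here encode leukocyte integrin subunits: *Itgam*, *Itgal*, *Itgax* and *Itgad*, which encode the α chains that pair with β2, *Itgb2*, which encodes β2 itself, and *Itga4*, *Itgb1* and *Itgb7*, which encode α4 and its partners β1 and β7. Each was taken by name from the 22367 protein-coding genes of the mouse GENCODE vM1 annotation, and its locus is the gene span plus 20 kb on either side in build mm9. *Itgam*, *Itgax* and *Itgad* lie next to each other on chromosome 7 (chr7:135206154-135271674, chr7:135273061-135294171 and chr7:135297890-135349015), so that their loci overlap, and *Itgal* lies upstream of them on the same chromosome (chr7:134439774-134478651). *Itgb2* is on chromosome 10 (chr10:76992997-77028453), *Itga4* on chromosome 2 (chr2:79095583-79173280), *Itgb1* on chromosome 8 (chr8:131209554-131257100) and, on the minus strand, *Itgb7* on chromosome 15 (chr15:102046426-102062366). The samples are 18 chromatin immunoprecipitation sequencing (ChIP-seq) libraries of C10 cells, 1 clonal mouse pre-B cell line that carries a fusion of C/EBPα with the hormone-binding part of the estrogen receptor and GFP. β-estradiol (β-Est) moves this fusion protein into the nucleus, and the cells then turn into macrophage-like cells. C/EBPα was precipitated at 0 h and at 10, 30 and 60 min, 3, 12, 24 and 48 h post-induction (hpi), and C/EBPβ and PU.1 were precipitated at 0, 3, 12, 24 and 48 hpi. The induced cells were grown with IL-3 and CSF-1 in addition to β-Est, and the cells at 0 h received the ethanol solvent in place of β-Est. There was 1 library per factor and time, so no difference has a replicate check, and every interval below covers counting error only.

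Integrins are cell surface receptors made of 1 α and 1 β chain, through which leukocytes hold on to endothelium, to other cells and to matrix. The β2 integrins LFA-1 (αL, from *Itgal*) and Mac-1 (αM or CD11b, from *Itgam*) bind ICAM ligands, and Mac-1 also binds complement fragments. CD11b is the classical surface marker of macrophages and granulocytes, CD11c (from *Itgax*) marks dendritic cells and some macrophages, and LFA-1 is carried by nearly all leukocytes, B cells included. The α4 integrins bind VCAM-1, fibronectin and, with β7, the gut addressin MAdCAM-1, and are used by lymphoid precursors in the bone marrow. C/EBPα and C/EBPβ are bZIP transcription factors of the myeloid lineage, and PU.1 is an ETS factor that both B cells and macrophages need. ChIP reads measure where these factors sat on the DNA, not RNA, so neither the cell type nor the expression of the integrins could be checked from these libraries.

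The sites on which the description turns are printed first, from the NCBIM37 genome (mm9), each on the strand of its gene, as the 200 bp around the site centre without any part annotated as untranslated. A site is named by its gene and its distance from the annotated gene start. Of the 90 sites, 21 were given by a naming rule (the site nearest each gene start, the highest sites and those called for all 3 factors at 48 hpi). Since the rule picks sites for high values or calls at 48 hpi and PU.1 at 0 h, the ratios at these sites are partly set by the choice and are given as descriptions. Every other site described, Itga4 +1.7 kb among those printed included, was chosen after its values were seen. Capitals mark every match, on either strand, to 5 short motifs: TTGCNNAA (C/EBP), GAGGAAGT (PU.1), TGANTCA (AP-1), TGTGGTT (RUNX) and TCCCNNGGG (EBF). The first 3 were bound by both C/EBP factors and PU.1 at 48 hpi.
Itgb2 +20.8 kb, intron (chr10:77013814-77013917, plus strand): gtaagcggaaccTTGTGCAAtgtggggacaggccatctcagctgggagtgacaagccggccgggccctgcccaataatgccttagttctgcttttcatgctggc
Itgam +26.7 kb, intron (chr7:135232758-135232957, plus strand): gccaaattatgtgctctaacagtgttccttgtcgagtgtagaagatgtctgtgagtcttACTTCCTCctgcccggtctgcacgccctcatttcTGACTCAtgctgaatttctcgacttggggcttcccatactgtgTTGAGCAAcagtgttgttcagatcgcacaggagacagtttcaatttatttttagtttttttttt
Itgax +4.3 kb, exon (chr7:135277227-135277426, plus strand): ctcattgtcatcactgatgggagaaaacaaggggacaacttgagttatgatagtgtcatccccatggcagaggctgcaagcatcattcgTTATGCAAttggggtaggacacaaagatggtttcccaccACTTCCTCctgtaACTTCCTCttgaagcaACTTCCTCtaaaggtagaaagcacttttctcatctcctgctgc
The next pair carried a PU.1 call in all 5 PU.1 libraries.
Itgam +3.1 kb, intron (chr7:135209177-135209376, plus strand): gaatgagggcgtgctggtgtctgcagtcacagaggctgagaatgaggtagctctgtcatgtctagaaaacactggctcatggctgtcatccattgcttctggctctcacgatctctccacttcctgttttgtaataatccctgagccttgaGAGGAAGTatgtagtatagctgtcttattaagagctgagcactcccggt
Itgb7 +6.4 kb, intron (chr15:102055854-102056053, minus strand): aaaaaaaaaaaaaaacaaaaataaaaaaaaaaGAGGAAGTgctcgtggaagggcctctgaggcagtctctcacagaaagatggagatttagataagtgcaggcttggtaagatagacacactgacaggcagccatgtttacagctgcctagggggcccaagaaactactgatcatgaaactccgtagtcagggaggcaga
The following 3 had more C/EBPα reads in the first hours than at 48 hpi.
Itgal −5.8 kb, between genes (chr7:134433857-134434056, plus strand): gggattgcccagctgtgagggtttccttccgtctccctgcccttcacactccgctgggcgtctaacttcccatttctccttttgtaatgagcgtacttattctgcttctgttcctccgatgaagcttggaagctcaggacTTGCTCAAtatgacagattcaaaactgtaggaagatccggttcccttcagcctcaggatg
Itgal gene start, upstream bases (chr7:134439685-134439773, plus strand): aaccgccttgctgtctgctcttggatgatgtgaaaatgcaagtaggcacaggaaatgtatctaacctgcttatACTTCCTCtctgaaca
Itga4 +1.7 kb, exon (chr2:79097181-79097380, plus strand): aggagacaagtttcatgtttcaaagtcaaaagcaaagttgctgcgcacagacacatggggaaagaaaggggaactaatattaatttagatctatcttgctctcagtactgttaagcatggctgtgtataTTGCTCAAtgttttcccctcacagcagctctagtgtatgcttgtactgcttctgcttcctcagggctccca
The last was bound by all 3 factors in all 18 libraries and lies in an intron of the neighbouring gene *Rarg*.
Itgb7 −11.7 kb, in Rarg (chr15:102073934-102074133, minus strand): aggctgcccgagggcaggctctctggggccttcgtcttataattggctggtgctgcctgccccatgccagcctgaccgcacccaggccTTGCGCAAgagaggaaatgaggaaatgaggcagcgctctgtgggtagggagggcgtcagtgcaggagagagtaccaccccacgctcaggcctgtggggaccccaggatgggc

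Sites were called with the thresholds listed by the study, and called centres within 200 bp of each other were merged over the 18 libraries into 118415 sites. The 8 loci held 90 of them over 598 kb, which is 15 sites per 100 kb against 4.46 in the genome as a whole. Of the 90 sites, 46 lay within a member gene, 8 lay within 1 kb of a member's gene start, and 22 were called in 1 library only. By locus, *Itgal* held 20 sites, *Itga4* 18, *Itgam* 16, *Itgb2* 12, *Itgad* 11, *Itgb7* 10, *Itgax* 8 and *Itgb1* 5, and 8 sites lay in more than 1 locus. The loci were long, with a median of 83.2 kb against 55.4 kb for all genes, and their median number of sites was 11.5 against 5. Values are reads with the 5′ end moved 75 bp inward, 1 per position and strand, in 200 bp around a site, per 10000000 reads used (per 10M). The C/EBPα libraries held 5968544 to 24909437 such reads and the PU.1 libraries 6574957 to 11349498. Those of C/EBPβ held 2901164 to 5843194, so the C/EBPβ values are the least precise. A count of 0 at 0 h was taken to allow up to 3 reads, which is 3.38 per 10M for C/EBPα, 7.01 for C/EBPβ and 4.25 for PU.1. The exact 95% interval of such a count reaches higher, to 4.16, 8.61 and 5.23 in the same order. The C/EBPα libraries of 10, 30 and 60 min were sequenced as 50-base reads on another instrument than the 36-base C/EBPα libraries of the other times, so time and sequencing cannot be told apart between these groups. Values are compared within a factor, since each antibody has its own yield. Courses over time are given in the order of the libraries, which is 0 h, 10, 30 and 60 min, 3, 12, 24 and 48 hpi for C/EBPα and 0, 3, 12, 24 and 48 hpi for the other two factors.

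PU.1 was on all 8 loci before induction, C/EBPα was called in 4 of them at 0 h, and more sites were called for C/EBPα at 60 min and 3 hpi than at 48 hpi. C/EBPα sites were called at 0 h in 4 of the 8 loci (10.6% of all protein-coding gene loci had one), at 60 min in 8 (50.8% of all), at 3 hpi in 7 (47.0% of all) and at 48 hpi in 6 (30.8% of all), where *Itgad* and *Itgb1* had none. C/EBPβ sites were called at 0 h in 2 loci, *Itga4* and *Itgb7* (2.87% of all), and at 48 hpi in 7 (39.4% of all), all but *Itgb1*. PU.1 sites were present in all 8 loci at 0 h (62.9% of all) and at 48 hpi (69.6% of all). In numbers of sites, C/EBPα was called at 4, 9, 15, 24, 22, 21, 17 and 16 of the 90 sites from 0 h to 48 hpi, C/EBPβ at 2, 10, 3, 11 and 22, and PU.1 at 30, 30, 51, 47 and 47. Against the same sites in the whole genome, 4 of 90 for C/EBPα at 0 h compare with 1.80% of all merged sites, 16 at 48 hpi with 7.30%, 22 for C/EBPβ at 48 hpi with 12.1%, 30 for PU.1 at 0 h with 27.1% and 47 at 48 hpi with 40.3%. The *Itgam* and *Itgax* loci were both counted for C/EBPα at 0 h through 1 shared site, and 1 of the 4 sites called then remained with tag thresholds 1.5 times higher. With those thresholds, 66 sites were left, of which 9 were called for C/EBPα and 13 for C/EBPβ at 48 hpi. Counts depend on depth: with every library of a factor reduced to its smallest, C/EBPβ was called at 11 sites at 48 hpi, and the genome held 15143 C/EBPα regions at 60 min and 17384 at 3 hpi in place of 29316 and 23968. Under this reduction PU.1 was called at 30 sites at 0 h and at 40 at 48 hpi.

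**Figure D1:**
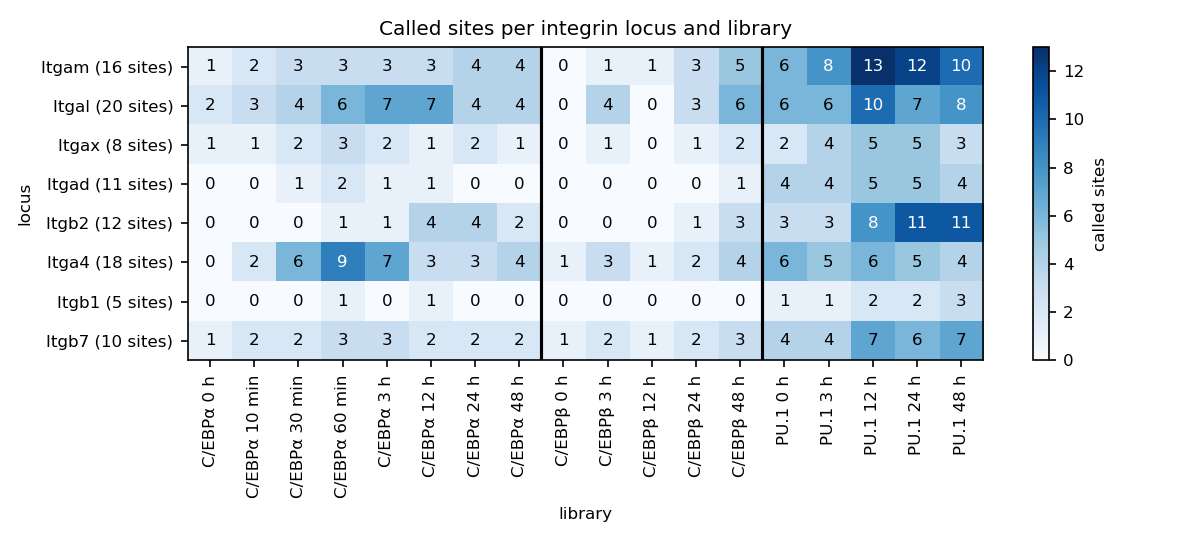
Number of called sites in each of the 8 integrin loci (rows, with the total of merged sites) in each of the 18 libraries (columns, by factor and time). *Itga4* has its most C/EBPα sites, 9, at 60 min, whereas *Itgb2* goes from 3 PU.1 sites at 0 h to 11 at 48 hpi.

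*Itgb2*, the common β chain of the CD11 integrins, had no C/EBPα or C/EBPβ site at 0 h and 2 sites with both, and with PU.1, at 48 hpi. At Itgb2 +20.8 kb, with its merged centre in an intron, C/EBPα gave 0, 0.401, 1.54, 1.02, 13.5, 31.8, 65.9 and 85.5 reads per 10M in time order. C/EBPβ gave 0, 1.71, 17.2, 51.2 and 144 there, and PU.1 0, 1.52, 11.2, 9.69 and 11.5. No factor was called at this site before 3 hpi, C/EBPα was called from 3 hpi, PU.1 from 12 hpi and C/EBPβ from 24 hpi. The uncalled C/EBPβ value of 17.2 at 12 hpi rests on 5 reads of the smallest library, so these calls do not give an order of arrival. The 48 hpi level was 25.3 times the 3 reads that a count of 0 at 0 h allows for C/EBPα, 20.5 times for C/EBPβ and 2.70 times for PU.1. These ratios take the 48 hpi count as exact, so they are not lower limits. The printed bases hold 1 C/EBP match and none to the PU.1 motif. They are the intronic part of the 200 bp, and the rest, upstream, is annotated as untranslated. Median C/EBPα and C/EBPβ centres lay −14 and −7 bp from the merged centre, in that upstream part. Itgb2 +14.9 kb, also intronic, was the other site of this locus called for all 3 factors at 48 hpi. C/EBPα went there from 6.77 to 25.1 reads per 10M between 0 h and 48 hpi (ratio 3.72, 95% interval 1.44 to 11.3), C/EBPβ from 2.34 to 39.4 (16.9, 2.70 to 700) and PU.1 from 1.42 to 22.9 (16.2, 2.64 to 665). The wide intervals stem from a single read at 0 h for both C/EBPβ and PU.1.

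The start of *Itgb2* was held by PU.1 throughout, and most of the other PU.1 sites of the locus were first called at 12 or 24 hpi. At the gene start PU.1 gave 66.7, 42.6, 48.5, 76.7 and 62.1 reads per 10M, with a ratio of 48 hpi over 0 h of 0.932 (0.630 to 1.39). C/EBPα was low there, with 3.38 reads per 10M at 0 h, 16.8 at 12 hpi and 6.29 at 48 hpi, and was called at 60 min, 12 and 24 hpi only. Of the 11 PU.1 sites of this locus, 8 were called at 48 hpi and not at 0 h, and none was called at 0 h and lost (27.8% of all sites called for PU.1 in any library were called at 48 hpi and not at 0 h). Itgb2 −8.0 kb, for example, gave 2.84, 7.60, 44.8, 30.8 and 29.6 PU.1 reads per 10M, and Itgb2 +6.8 kb gave 8.51, 16.7, 52.3, 38.8 and 40.1. Both were at their highest at 12 hpi. By contrast, Itgb2 −14.4 kb, also 1 of the 8, gave 8.51 at 0 h and 9.56 at 48 hpi. The PU.1 library of 48 hpi was deeper, with 10465427 reads used against 7051533 at 0 h, which allows more calls.

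*Itgam*, the gene of CD11b, had 15 sites called for PU.1 in any library and 7 called for C/EBPα out of 16, those within *Itgax* included (73.9% and 38.7% of all merged sites). Of these 7, 3 were called at 12 hpi or later only (13.5% of all sites called for C/EBPα) and 2 between 10 min and 3 hpi only (59.0% of all such sites). At Itgam +3.1 kb, in an intron near the start, PU.1 gave 102, 71.5, 105, 81.9 and 135 reads per 10M, the highest PU.1 value of the locus at both 0 h and 48 hpi, and the ratio of these was 1.32 (0.987 to 1.78). C/EBPα gave 1.13, 2.01, 3.85, 1.54, 4.49, 8.38, 6.59 and 15.1 there and was called at 48 hpi alone. C/EBPβ was called at this site at 24 and 48 hpi, with 38.4 and 33.5 reads per 10M after 4.67 at 0 h. So PU.1 was in place at 0 h, and the C/EBP factors were called only in the last libraries. The gene start itself was not a called site for any factor, and the 200 bp around it held 3 PU.1 reads at 0 h and 16 at 48 hpi.

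A second intronic site, Itgam +26.7 kb, held no PU.1 read at 0 h. PU.1 gave 0, 4.56, 10.3, 11.5 and 20.1 reads per 10M there and was called from 12 hpi, as was C/EBPα, with 3.38, 1.20, 4.62, 1.54, 7.19, 15.1, 25.1 and 23.9. C/EBPβ gave 7.01, 5.13, 31.0, 70.5 and 108, and its ratio of 48 hpi over 0 h was 15.5 (5.02 to 77.3). All 3 factors thus had their lowest values in the first 3 h. The printed bases hold 1 match each to the C/EBP, PU.1 and AP-1 motifs. Itgam −11.7 kb, upstream of the gene, followed the same course for C/EBPα, with 3.38 reads per 10M at 0 h, 7.19 at 3 hpi, 39.6 at 24 hpi and 33.9 at 48 hpi (48 hpi over 0 h 10.0, 3.09 to 51.7). PU.1 was called there from 12 hpi with 20.5, 22.9 and 16.2, and C/EBPβ at 48 hpi with 55.2.

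Itgam +52.9 kb, in an intron, was a PU.1 site with no C/EBP call, at 25.5, 24.3, 37.3, 55.5 and 88.9 reads per 10M (48 hpi over 0 h 3.48, 2.09 to 6.13). Itgam +38.4 kb, in the same gene, had C/EBPα alone and early, at 7.89, 30.1, 55.4, 52.2, 16.2, 5.03, 3.96 and 0. Its C/EBPα call lasted from 10 min to 3 hpi, and the PU.1 values there never exceeded 4.56.

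*Itgax*, the gene of CD11c, held the highest C/EBPα value of the *Itgam* cluster at 48 hpi. At Itgax +4.3 kb, in an annotated exon, C/EBPα gave 13.5, 14.1, 54.6, 54.3, 67.4, 93.8, 71.2 and 74.2 reads per 10M and was called in all 8 libraries. PU.1 gave 32.6, 59.3, 82.1, 69.6 and 119, and its ratio of 48 hpi over 0 h was 3.66 (2.33 to 5.99), while that of C/EBPα was 5.48 (2.91 to 11.2). C/EBPβ gave 11.7, 35.9, 24.1, 64 and 94.6 (8.10, 3.24 to 26.1). As at Itgb2 +20.8 kb and Itgam +26.7 kb, every factor was higher at 48 hpi than at 0 h. Unlike the *Itgb2* and *Itgam* sites above, this one was called for both C/EBPα and PU.1 at 0 h. The C/EBPα window of this site held 12 reads at 0 h. With tag thresholds 1.5 times higher, 1 of the 4 C/EBPα calls at 0 h in the 8 loci remained. The window of Itgb7 −11.7 kb, another of the 4, held 70 reads, so the 0 h call at Itgax +4.3 kb is less secure. The bases of Itgax +4.3 kb hold 3 matches to the PU.1 motif and 1 to the C/EBP motif. Of its 8 sites, *Itgax* shared its strongest with the locus of *Itgam*. An early C/EBPα site, Itgax +7.9 kb, has its median C/EBPα centre 93 bp from the merged centre. Around its own centre it gave 17.7 C/EBPα reads per 10M at 30 min and 27.6 at 60 min (13.1 and 12.3 in the merged window), and at most 6.29 in any other C/EBPα library.

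*Itgad*, the gene of CD11d, was the member of the cluster with PU.1 and little else. Its highest PU.1 site at 0 h, Itgad +27.5 kb, gave 36.9, 21.3, 38.3, 15.9 and 18.2 reads per 10M (48 hpi over 0 h 0.492, 0.258 to 0.925), and the highest at 48 hpi, Itgad +29.8 kb, gave 34.0, 25.9, 28.9, 32.6 and 36.3 (1.07, 0.624 to 1.86). Both are intronic, and C/EBPα never exceeded 3.77 at either. C/EBPα had no called site in this locus at 0 h, 10 min, 24 or 48 hpi and 2 at most at the other times. C/EBPβ was called once, at 48 hpi at Itgad +26.6 kb, with 35.5 reads per 10M after 0 at 0 h, where PU.1 gave at most 4.41 and C/EBPα 6.29. Read density over the whole *Itgad* locus was near the middle of all genes, at the 49.5th percentile for C/EBPα and the 61.8th for PU.1 at 48 hpi, against the 89.6th and the 97.9th for *Itgam*.

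**Figure D2:**
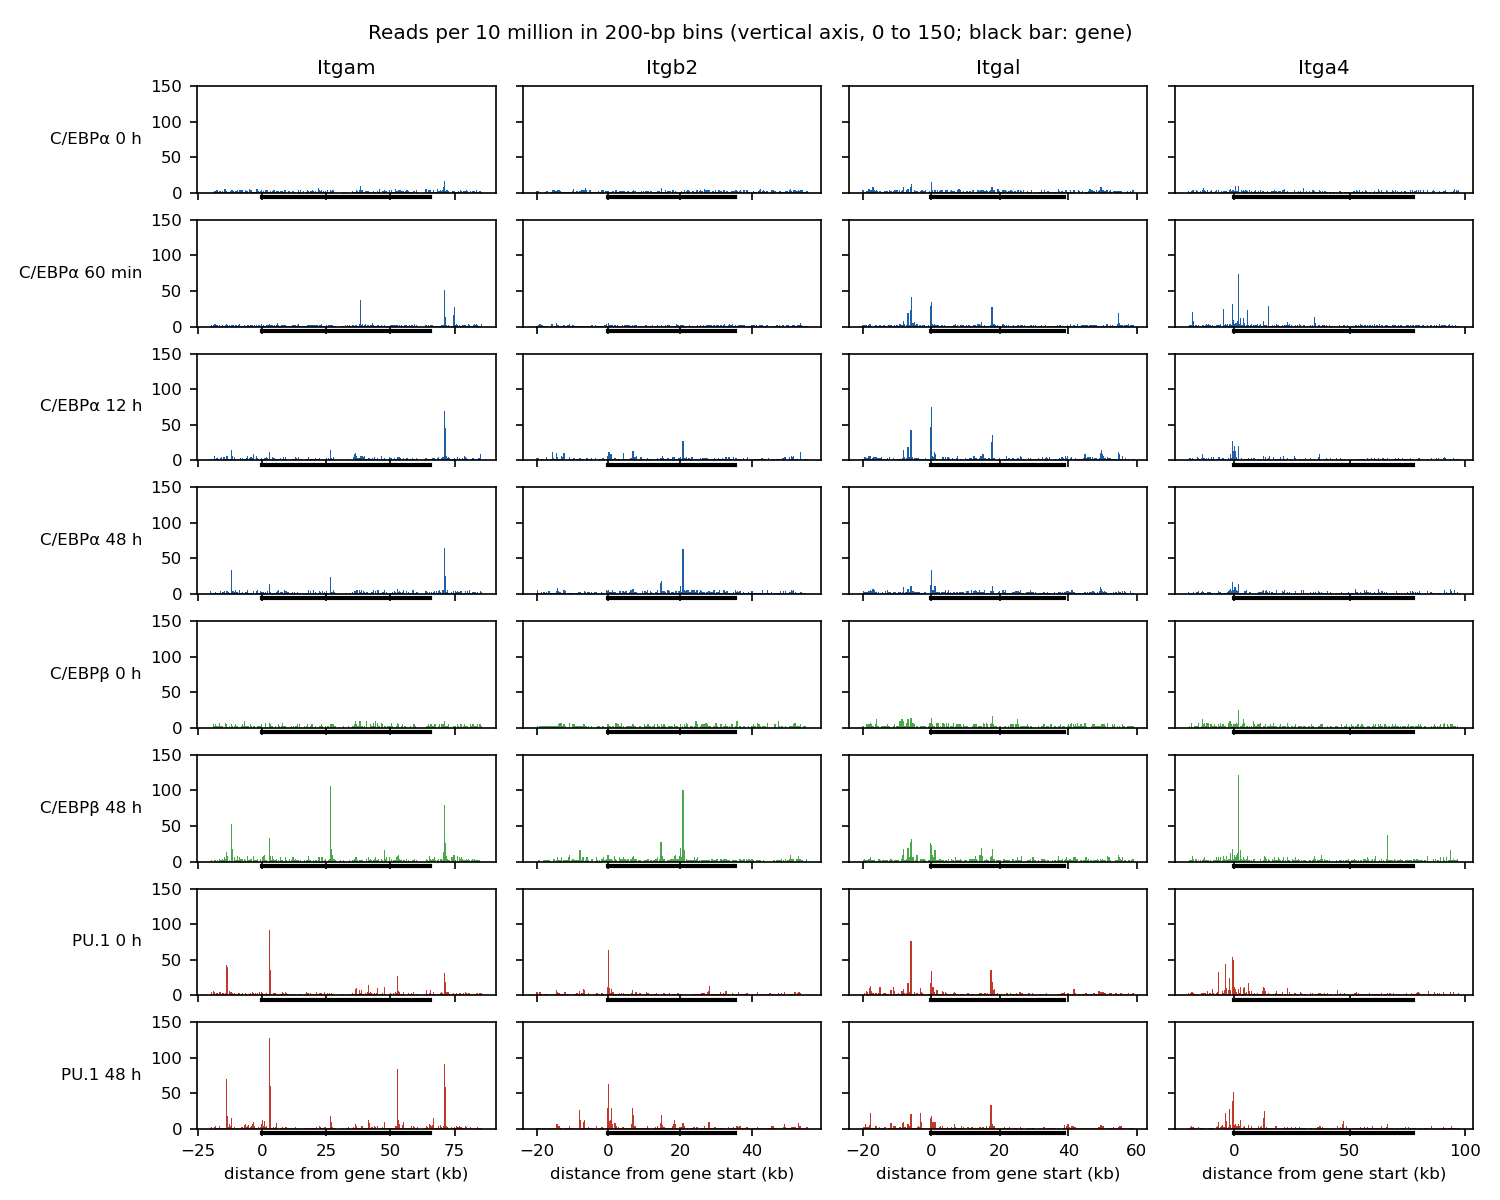
Reads per 10M in 200-bp bins (vertical axis, 0 to 150) against the distance from the gene start (horizontal axis, kb) at 4 loci in 8 of the 18 libraries, blue for C/EBPα, green for C/EBPβ and red for PU.1; the black bar is the gene. The C/EBP peak of *Itgb2* at +20.8 kb is present at 48 hpi and not at 0 h, and the C/EBPα peaks of *Itga4* are taller at 60 min than at 0 h.

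*Itgal*, the gene of the LFA-1 α chain, had C/EBPα called at its start and upstream from 0 h on, and less PU.1 at the −5.8 kb site at 48 hpi than at 0 h. These C/EBPα windows held 10 and 9 reads at 0 h, against 70 at Itgb7 −11.7 kb, another site called then. Of the 4 C/EBPα calls at 0 h in the 8 loci, 1 remained with tag thresholds 1.5 times higher. Over the locus, 14 sites were called for PU.1 in any library, 6 of them at 0 h and 8 at 48 hpi, with 4 gained and 2 lost. Over the genome, 27.8% of such sites were called at 48 hpi and not at 0 h, and no share was computed for lost sites. Itgal −3.1 kb, among the gained, went from 11.3 to 23.9 (ratio 2.11, 0.921 to 5.40). At Itgal −5.8 kb, PU.1 gave 90.8, 79.1, 56.9, 38.8 and 25.8 reads per 10M, lower at each later time, with a ratio of 48 hpi over 0 h of 0.284 (0.174 to 0.452). C/EBPα gave 10.2, 16.9, 48.5, 45.0, 60.2, 41.9, 34.3 and 15.1, and the 48 hpi value was 0.251 of that at 3 hpi (0.123 to 0.467). C/EBPβ gave 9.34, 25.7, 17.2, 38.4 and 47.3 there, and its ratio of 48 hpi over 0 h was 5.06 (1.74 to 20.1). At 48 hpi, then, the site carried less PU.1 than at 0 h and less C/EBPα than at 3 hpi, and more C/EBPβ than at 0 h. Its bases hold 1 C/EBP match and none to the PU.1 motif.

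At the *Itgal* gene start C/EBPα was called in all 8 libraries, with 11.3, 20.9, 64.6, 55.8, 84.5, 93.8, 72.5 and 39.0 reads per 10M. PU.1 was highest there at 12 hpi as well, with 39.7, 44.1, 84.9, 46.7 and 29.6, and its 48 hpi and 0 h values could not be told apart by counting (ratio 0.746, 0.433 to 1.29). C/EBPβ gave 11.7, 25.7, 27.6, 32.0 and 37.4. The upstream bases hold 1 PU.1 motif, and the whole 200 bp window holds no C/EBP match. Another site, Itgal +17.8 kb, paired intronic C/EBPα and PU.1 peaks at different bases. C/EBPα gave 7.89, 10.4, 35.4, 35.8, 43.1, 40.2, 18.5 and 10.1 there, while the median PU.1 centre lay 242 bp upstream of the merged centre. Around that PU.1 centre, PU.1 gave 41.1, 54.8, 37.3, 33.5 and 34.4, so the low PU.1 reading in the merged window (17.0 at 0 h and 3.82 at 48 hpi) comes from the placing of the window.

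*Itga4*, the gene of the α4 chain, had 11 C/EBPα sites, of which the share called in the first hours only was near that of the genome. Of the 11, 7 were called between 10 min and 3 hpi and in no library before or after, and 10 of the 11 were never called for PU.1. Over the genome, 59.0% of the sites called for C/EBPα in any library were called between 10 min and 3 hpi only and 61.9% were never called for PU.1. Itga4 +14.8 kb gave 0, 3.21, 17.7, 45.0, 5.39, 3.35, 2.64 and 1.26 C/EBPα reads per 10M. The 60 min value was 13.3 times the 3 reads that a count of 0 at 0 h allows, with its own counting error left out. Itga4 −4.7 kb gave 1.13, 2.41, 20.8, 25.6, 21.6, 3.35, 5.27 and 1.26. PU.1 stayed at 3.73 or below at both. Itga4 +1.7 kb had the highest C/EBPα values of the locus from 10 min to 3 hpi. It gave 10.2, 26.1, 80.0, 72.7, 66.5, 20.1, 14.5 and 13.8 for C/EBPα, 7.16-fold higher at 60 min than at 0 h (3.67 to 16.0) and back to 1.36 times the 0 h value at 48 hpi (0.513 to 3.72). C/EBPβ was highest at this site at 48 hpi, with 28.0, 37.7, 34.5, 51.2 and 122 (48 hpi over 0 h 4.36, 2.33 to 8.89), and was called there in all 5 libraries. Another site, Itga4 +66.4 kb, was called for C/EBPβ at 48 hpi alone, with 51.2 reads per 10M after 0 at 0 h, where C/EBPα gave at most 8.99.

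The highest PU.1 values of *Itga4* lay upstream of the gene, and 3 of its 7 PU.1 sites lay within it. Itga4 −0.6 kb gave 82.3, 98.9, 73.7, 51.1 and 80.3 PU.1 reads per 10M (48 hpi over 0 h 0.976, 0.690 to 1.39), and it was the site of the locus called for all 3 factors at 48 hpi. C/EBPα gave 7.89, 16.1, 43.1, 37.4, 35.1, 35.2, 14.5 and 17.6 at this site. PU.1 at Itga4 −2.0 kb was likewise present in all 5 libraries, between 52.5 and 68.4, whereas Itga4 −7.0 kb gave 31.2, 60.8, 27.1, 18.5 and 9.56 and was no longer called at 48 hpi. Of the 3 sites within the gene, Itga4 +12.8 kb was called for PU.1 in all 5 libraries, with 15.6, 22.8, 33.6, 13.2 and 25.8, Itga4 +6.3 kb was called at 0 h and 3 hpi and Itga4 +47.2 kb at 12 and 48 hpi. By the gene start, Itga4 +0.2 kb was called for C/EBPα from 12 hpi, with 25.1, 15.8 and 12.6.

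*Itgb1*, the widely expressed β1 chain, had the fewest sites of the 8 genes. Itgb1 +32.6 kb, in an intron, was the one PU.1 site of the pre-B state, with 34.0, 31.9, 20.5, 15 and 11.5 reads per 10M (48 hpi over 0 h 0.337, 0.154 to 0.700). The site by the gene start, Itgb1 −0.1 kb, was called at 12 hpi alone, for C/EBPα (13.4) and for PU.1 (9.33). C/EBPβ was called nowhere in the locus. At Itgb1 −5.3 kb, PU.1 was called at 48 hpi alone, with 12.4 after 1.42 at 0 h, which is 1 read. C/EBPα was called once more, at 60 min at the +32.6 kb site, with 12.3. Over the whole *Itgb1* locus, read density lay between the 31.4th and the 54.3rd percentile of all genes in the 18 libraries.

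*Itgb7*, the β7 chain that pairs with α4, combined a PU.1 site in an intron, called at all 5 times, with a PU.1 site at its start that was highest at 12 hpi. Itgb7 +6.4 kb gave 116, 103, 82.1, 63.4 and 113 PU.1 reads per 10M, the highest PU.1 value of the 90 sites at 0 h (48 hpi over 0 h 0.970, 0.725 to 1.30), with the lowest at 24 hpi and no C/EBP call. At the gene start PU.1 gave 9.93, 30.4, 70.0, 45.8 and 25.8, with a ratio of 7.05 at 12 hpi over 0 h (3.26 to 18.1) and of 2.60 at 48 hpi over 0 h (1.10 to 7.07). C/EBPα did not exceed 6.70 at the start. PU.1 was also highest at 12 hpi at the starts of *Itgal*, *Itga4* and *Itgb1*. At those of *Itgam*, *Itgax* and *Itgb2* it was highest later, and that of *Itgad* held 2 reads at most. The 12 hpi library had the most called PU.1 regions in the genome.

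In the flanks of *Itgb7*, 2 sites were called for all 3 factors at 48 hpi, and both lie in or near a neighbouring gene. Itgb7 −11.7 kb, in an intron of *Rarg*, the gene of a retinoic acid receptor, was the only one of the 90 sites called in all 18 libraries. C/EBPα gave 78.9, 61.0, 111, 111, 122, 144, 81.8 and 103 there, and C/EBPβ gave 46.7, 47.9, 68.9, 106 and 223 (48 hpi over 0 h 4.77, 2.95 to 8.10). PU.1 gave 78.0, 51.7, 83.1, 67.8 and 43.0 (0.551, 0.363 to 0.833). C/EBPα and C/EBPβ were thus both called at this site before β-Est was added. Itgb7 +28.8 kb lies 485 bp from the start of *Zfp740*. C/EBPα went there from 4.51 at 0 h to 58.6 at 12 hpi and 39.0 at 48 hpi (48 hpi over 0 h 8.64, 3.05 to 33.7), with C/EBPβ at 74.9 at 48 hpi. PU.1 stayed low and nearly level at this site, with 5.67, 7.60, 7.47, 7.05 and 7.64 on 4 to 8 reads. It was called there at 24 and 48 hpi only.

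**Figure D3:**
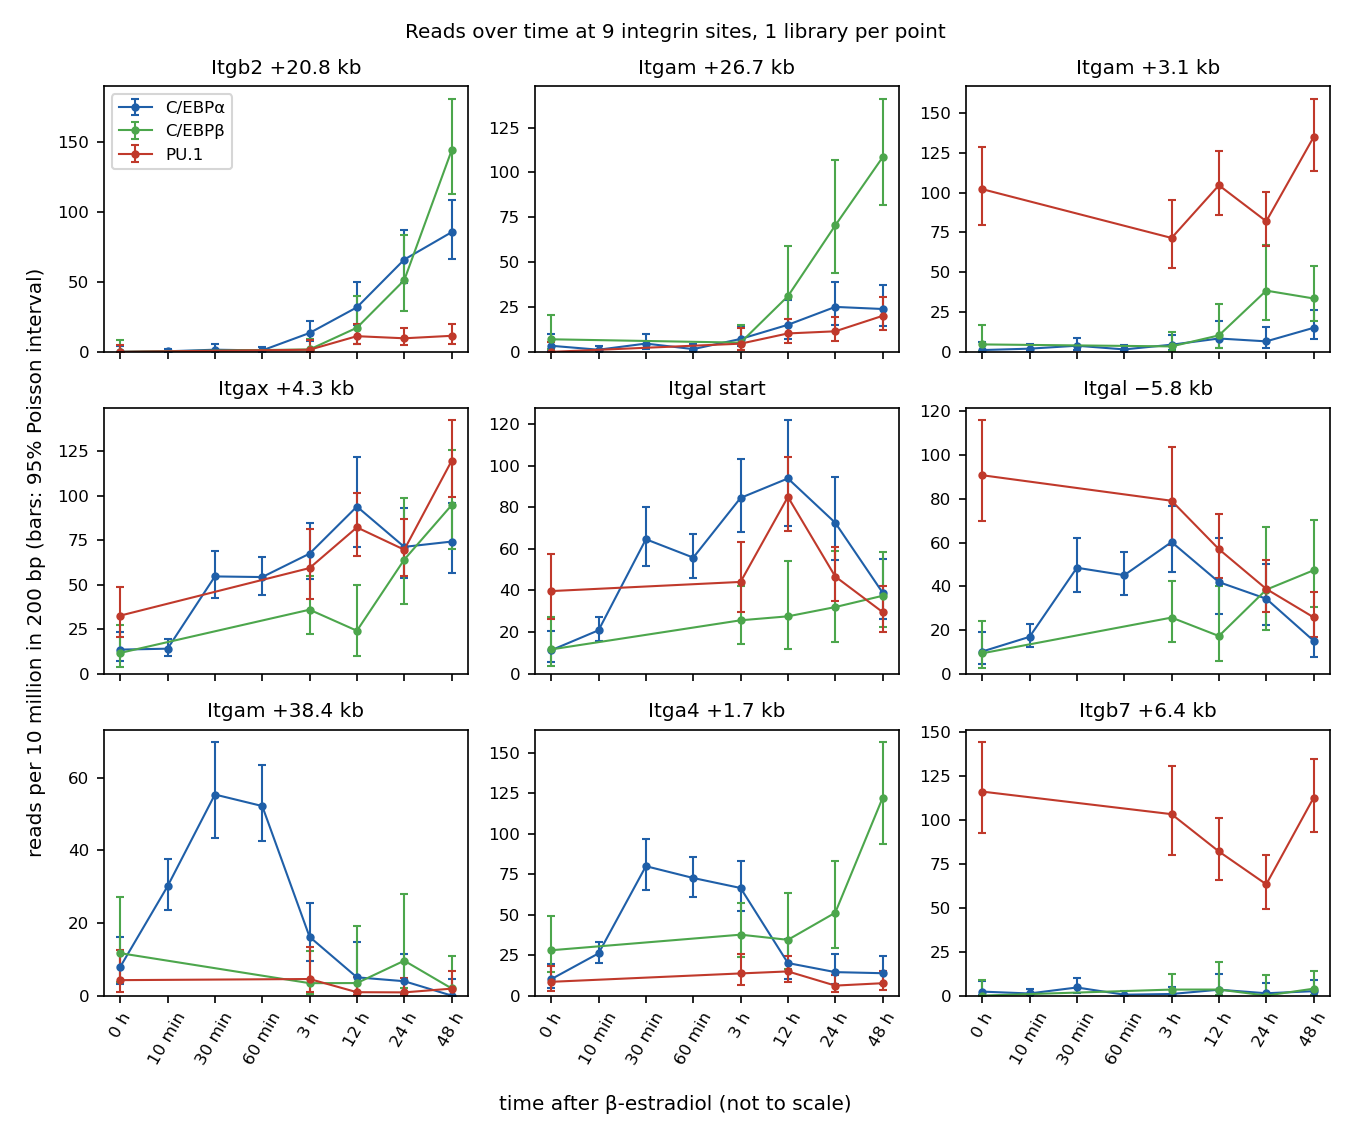
Reads per 10M in 200 bp (vertical axis, from 0, with 95% Poisson intervals) over time after β-Est (horizontal axis, not to scale) at 9 sites, for C/EBPα (blue), C/EBPβ (green) and PU.1 (red), 1 library per point. The *Itgb2* +20.8 kb site goes from 0 to 85.5 for C/EBPα, *Itgam* +38.4 kb and *Itga4* +1.7 kb have their highest C/EBPα values at 30 min, and *Itgal* −5.8 kb ends with less PU.1 than it began with.

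Counted over the 8 loci, 53 sites were called for PU.1 at 0 h or 48 hpi. Of these, 20 were at least 2-fold higher at 48 hpi (33.6% of all such sites in the genome) and 8 at least 2-fold lower (18.2% of all), on reads per 10M + 1. Of the 53, 23 entered only through their 48 hpi call and 6 only through that at 0 h. The median log2 ratio of the 53 was 0.37 against 0.34 for all sites, so the integrin loci as a group lay close to the genome. By gene, 7 of 11 sites were higher and 0 lower at *Itgb2*, and 5 and 0 of 10 at *Itgam*. At *Itgal*, 1 and 4 of 10 were higher and lower, and at *Itga4* 1 and 2 of 7. Only the 48 hpi call brought in 8 of the sites at *Itgb2*, 4 at *Itgam*, 4 at *Itgal* and 1 at *Itga4*. Only the 0 h call brought in 0, 0, 2 and 3, in the same order. The splits are thus partly set by the selection, and they were not tested against each other. Of the 4 lower sites of *Itgal*, 1 is the +17.8 kb site whose window missed the PU.1 centre. The counting interval left out 1 at 14 of the 20 higher and 7 of the 8 lower sites. For C/EBPα, 12 of the 16 sites called at 0 h or 48 hpi were at least 2-fold higher at 48 hpi (72.8% of all), with a median log2 ratio of 1.73 against 1.92. All 16 were called at 48 hpi and 4 of them at 0 h, so that 12 entered only through their 48 hpi call and the direction is largely set by the selection, as it is for all sites. Of the 29 called at 3 or 48 hpi, 14 were at least 2-fold lower at 48 hpi (61.1% of all), with a median of −0.95 against −1.45. Of these 14, 6 were at *Itga4*, of 9 there, and 5 at *Itgal*, of 9 there. Only Itgal −5.8 kb, the *Itgal* gene start and Itga4 +1.7 kb among the 14 were called at 48 hpi. The others entered only through their 3 hpi call, so this direction too is largely set by the selection.

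C/EBPα and PU.1 shared 21 of the 90 sites in at least 1 library each (14.8% of all merged sites), and 9 of these carried PU.1 at 0 h (7.62% of all). Among the 21 are Itgal +17.8 kb, also 1 of the 9, and Itgax +7.9 kb, where the peaks lay at different bases. Median C/EBPα and PU.1 centres lay 6 and −242 bp from the merged centre at the first, and 93 and −92 bp at the second. C/EBPα without any PU.1 call was found at 21 sites (24.0% of all), and 15 sites were called for C/EBPα between 10 min and 3 hpi only (22.9% of all). PU.1 was called without either C/EBP factor in any library at 45 sites (58.2% of all), and at 48 hpi but not at 0 h at 23 sites (20.5% of all). At 48 hpi, C/EBPα was called at 16 sites, of which 14 were also called for C/EBPβ (5.26% of all) and 11 for all 3 factors (3.22% of all), and 8 sites were called for C/EBPβ and not for C/EBPα (6.83% of all). These 11 were spread over 6 genes, *Itgam*, *Itgax*, *Itgal*, *Itgb2*, *Itga4* and *Itgb7*. A further 7 sites were called for PU.1 at 12 hpi and in no other library (11.6% of all), for example Itgam −12.6 kb, where PU.1 gave 5.67, 9.13, 20.5, 10.6 and 8.60 reads per 10M. The 12 hpi library had the most called PU.1 regions in the genome, 68426 against 32164 to 52042 in the other 4.

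**Figure D4:**
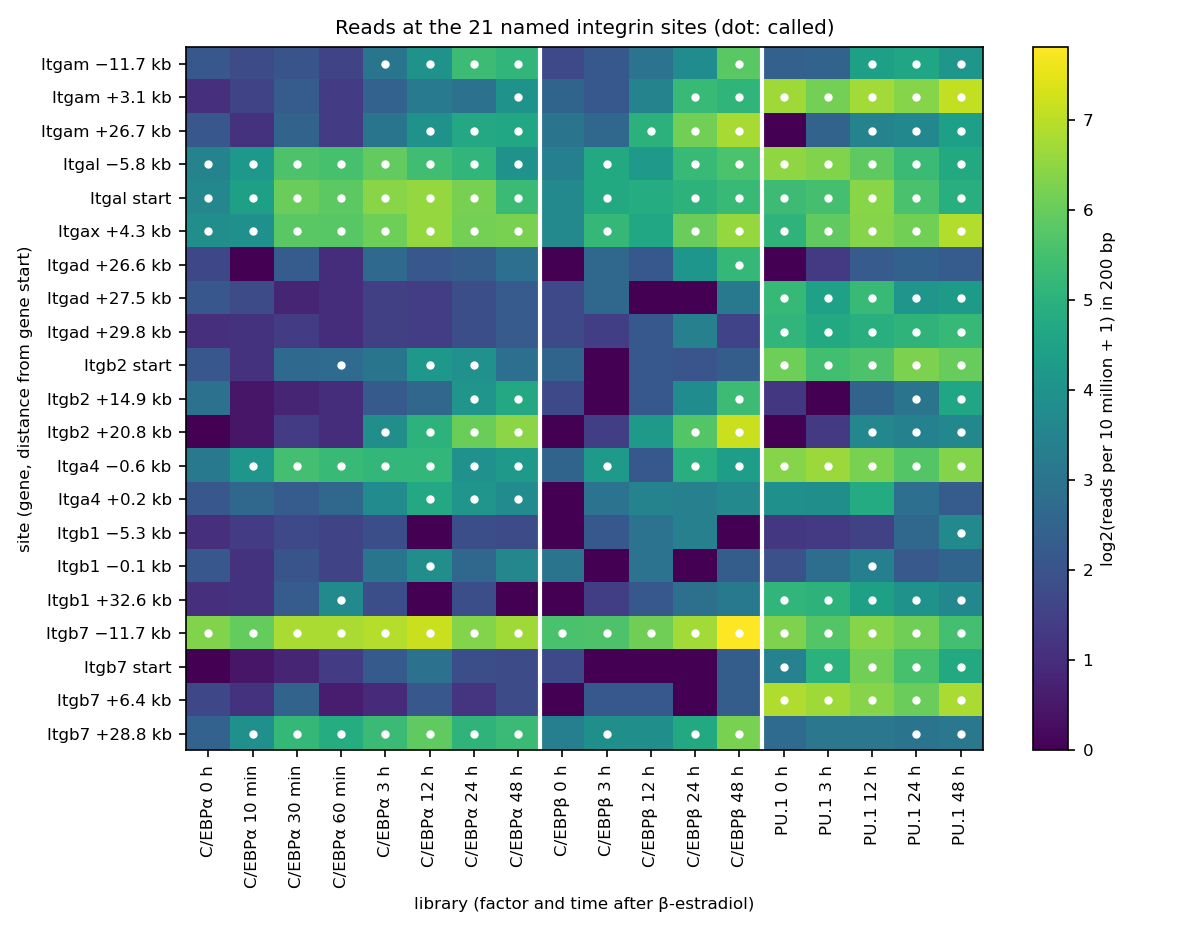
Reads at the 21 named sites (rows) in the 18 libraries (columns), as log2(reads per 10M + 1) in 200 bp, with a white dot where the site was called. *Itgb7* −11.7 kb is called in every column, while *Itgb2* +20.8 kb is called from 3 hpi and *Itgam* +26.7 kb from 12 hpi.

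Motif matches were counted by the factor that was called. The shares over all merged sites given below mix the classes, and 58.2% of those sites were called for PU.1 and neither C/EBP factor. Shares within the same class over the genome were not computed, so differences between classes cannot be read as particular to these loci. A C/EBP match (TTGCNNAA) stood in 16 of the 45 sites called for C/EBPα or C/EBPβ and in 1 of the 45 called for PU.1 alone, against 16.7% of all merged sites. It stood in 7 of the 16 sites called for C/EBPα at 48 hpi. A PU.1 match (GAGGAAGT) stood in 12 of the 45 sites called for PU.1 alone and in 6 of the 45 called for C/EBPα or C/EBPβ, against 17.4% of all. It stood in 11 of the 23 sites called for PU.1 at all 5 times, in 5 of the 16 called for C/EBPα at 48 hpi and in 0 of the 21 called for C/EBPα and never for PU.1. AP-1 matches (TGANTCA) were found in 9 of the 90 sites (9.49% of all), RUNX matches (TGTGGTT) in 12 (6.78% of all) and EBF matches (TCCCNNGGG) in 0 (5.53% of all). All windows were 200 bp long and read on both strands, and none of the 5 motifs contains another.

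Sites in the loci of other integrin subunits, adaptors and ligands were counted in the same way. All-gene shares for these counts are the 10.6% and 30.8% (C/EBPα), 2.87% and 39.4% (C/EBPβ) and 62.9% and 69.6% (PU.1) given above for 0 h and 48 hpi, and several counts are near them. Of 18 other subunit genes, 2 had a C/EBPα site at 0 h, *Itga1* and *Itgb8*, and 8 had one at 48 hpi, while PU.1 was present in 16 at 0 h and in 17 at 48 hpi. Of 16 genes that regulate integrin activation or link integrins to the cytoskeleton, 4 had a C/EBPα site at 0 h and 13 at 48 hpi, with PU.1 in 15 at both times. *Fermt3*, which encodes the leukocyte protein kindlin-3 that activates integrins, had C/EBPα at 60 min and 3 hpi and not at 48 hpi, and *Tln1*, which encodes talin, had it at 48 hpi and not at the other 3 times counted. Of 8 ligand genes, 0 had C/EBPα at 0 h and 2 at 48 hpi, *Madcam1* and *Cd47*, with PU.1 in 6 at both times. C/EBPβ went from 0 to 11 of the other subunits, from 1 to 12 of the regulators and linkers, and from 0 to 3 of the ligands between 0 h and 48 hpi.

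The genes whose whole loci moved most like a member over the 18 libraries were found by Pearson's r of the log2 read density, centred on each library's median. They were *4921513D23Rik* (r = 0.955) and *Cnr2* (0.944) for *Itgam*, *Ltb* (0.927) and *Cox4i2* (0.923) for *Itgal*, *Fgf2* (0.920) and *Cetn4* (0.911) for *Itgax*, and *Orai1* (0.830) and *Btnl3* (0.799) for *Itgad*. For *Itgb2* they were *Bcl3* (0.960) and *Myo9b* (0.955), for *Itga4* *Mbnl1* (0.932) and *Zfx* (0.926), for *Itgb1* *Hprt* (0.876) and *Olfr654* (0.814), and for *Itgb7* *Dpep2* (0.960) and *Pip4k2b* (0.954). The 2 highest loci are given for each member. The libraries share antibodies and differ in depth, and r describes likeness only, without a test.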

How the data were processed

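C/EBPα, C/EBPβ and PU.1 ChIP-seq reads of 18 libraries were used. The submitters' processing notes name Bowtie, HOMER and mm9. The authors deposited 1 line per aligned read (chromosome, start, end, strand), which is a position and no normalized unit. Here, 5′ ends were moved 75 bp inward, 1 read was kept per position and strand, and other contigs were left out. Regions were called by HOMER's rules rewritten in Python 3.11.15 (numpy 2.4.6, scipy 1.17.1), with the study's tag threshold for each library, 4 times the read density of the 10 kb around it and p at or under 0.0001 from a Poisson distribution of that density. The caller was tested on simulated reads. Without input libraries, no control was subtracted. The intervals are exact Poisson intervals and, for ratios, exact conditional binomial intervals (95%). With 1 library per group no p-value was computed. Named for each gene were the site within 1 kb of its start, the sites highest for C/EBPα at 48 hpi and for PU.1 at 0 h and 48 hpi, and every site called for all 3 factors at 48 hpi. The 8 genes, the lists and the motifs were chosen with earlier results of these data known. Sequences and annotation are from NCBIM37 and GENCODE vM1. Alternatives changed the calling, the scaling, the window and the pseudocount of 1. The results of the 2 lists of cell type markers are not reported here.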

Additional observations from a re-analysis of the deposited data

How the results depend on the processing

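The 10 counts of sites over the 8 loci were recomputed under up to 11 alternatives. Of 92 such values, 86 stayed within 1.5 times the reported count. With tag thresholds 1.5 times higher, the calls fell to 1 for C/EBPα at 0 h, 9 for C/EBPα at 48 hpi and 13 for C/EBPβ at 48 hpi, and the PU.1 sites at least 2-fold lower at 48 hpi than at 0 h to 5. With every library of a factor reduced to the size of its smallest, C/EBPβ was called at 11 sites at 48 hpi, and 9 C/EBPα sites were at least 2-fold lower at 48 than at 3 hpi. The total of bound sites ranged from 66 to 99. Of the 62 ratios of 48 hpi over 0 h at the named sites that had a read, none whose interval leaves out 1 (31) changed direction under the 4 alternatives tried. Most of these sites were chosen for their level or calls at 48 hpi, which partly fixes that direction. Leaving out a replicate was not possible, as each group holds 1 library. No paired analysis was possible because each group holds 1 library. Calls were made in windows whose width and centre differ from the 200 bp in which values are given, and a missing call does not show that a factor was absent.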
